A study of Mus musculus with 23 samples.

Results

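The complement and coagulation genes described here are 40 genes of secreted plasma proteins that the liver makes, chosen by name from the complement cascade, the clotting cascade, fibrinolysis and their inhibitors, and not by their response. All 40 were measured on all 23 arrays, among 19899 genes tested. The animals, female mice of the hybrid strain B6C3F1, were 5 to 6 weeks old at purchase, had at least 7 days of acclimatisation, and were then gavaged for 21 days. Furan, a volatile contaminant of heated food that the liver oxidises, was given in corn oil, and liver was taken 4 h after the last dose. The groups were 5 animals on corn oil alone, 4 on furan at 1 mg/kg body weight, 5 receiving 2 mg/kg, 4 receiving 4 mg/kg and 5 receiving 8 mg/kg. Liver RNA carried Cy5 and a universal mouse reference RNA, the same on every array, carried Cy3, with no dye swap, so each value is a log2 ratio of liver over reference and each change is a log2 difference between groups. The labels give each array as a separate animal of its group.

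Complement is a cascade of plasma proteases and binding proteins. Mannose-binding lectins with their MASP proteases, or antibody with C1, cleave C4 and C2, the alternative pathway runs through factor B, and all routes meet at C3 and end in the membrane attack complex. Clotting is a parallel cascade in which factors VII, IX and X and prothrombin lead to the cleavage of fibrinogen, plasmin dissolves the clot, and antithrombin and the protein C system, with protein S as its cofactor, hold the cascade back. Hepatocytes are the main source of most of these proteins, and clotting times are used as tests of liver function.

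The 40 genes stood far above the reference RNA. In corn oil livers their mean log2 ratio ran from 1.65 for F10 to 10.9 for F13b, with a median of 6.86, against a median of 0.24 over all genes, and all 40 were above 0. Cy5 signal was well above background on all 23 arrays for 40 of 40 genes, and no spot of theirs was saturated. The Cy3 signal was well above background on every array for 36 of 40. The exceptions were C9 on 0 arrays, F13b on 4, Masp1 on 19 and C6 on 21, so the ratios of C9 and F13b rest on a dim reference signal.

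Protein S, the product of Pros1, was the member on which the comparison by ratio turned, and fibrinogen is the most familiar product of the group, so the windows of Pros1, Fga and Fgb from 250 bases before to 50 bases after the gene start are shown, from RefSeq on GRCm38.p6. Capitals mark matches on either strand to GTTAAT, a core site of the liver factor HNF1, and to TTGCNNAA, a C/EBP site. Pros1 lies at chr16:62854057-62854356 on the plus strand, Fga at chr3:83025903-83026202 on the plus strand and Fgb at chr3:83049814-83050113 on the minus strand.
Pros1: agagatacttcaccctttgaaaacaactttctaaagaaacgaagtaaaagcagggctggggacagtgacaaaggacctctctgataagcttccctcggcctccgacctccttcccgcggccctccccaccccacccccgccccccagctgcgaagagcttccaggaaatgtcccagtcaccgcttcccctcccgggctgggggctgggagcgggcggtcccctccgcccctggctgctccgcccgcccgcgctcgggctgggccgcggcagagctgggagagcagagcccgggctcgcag
Fga: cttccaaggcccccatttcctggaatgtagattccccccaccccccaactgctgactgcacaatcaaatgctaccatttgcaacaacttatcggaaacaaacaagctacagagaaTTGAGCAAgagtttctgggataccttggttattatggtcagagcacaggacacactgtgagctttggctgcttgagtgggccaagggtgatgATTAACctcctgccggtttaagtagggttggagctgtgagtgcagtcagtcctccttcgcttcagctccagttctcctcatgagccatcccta
Fgb: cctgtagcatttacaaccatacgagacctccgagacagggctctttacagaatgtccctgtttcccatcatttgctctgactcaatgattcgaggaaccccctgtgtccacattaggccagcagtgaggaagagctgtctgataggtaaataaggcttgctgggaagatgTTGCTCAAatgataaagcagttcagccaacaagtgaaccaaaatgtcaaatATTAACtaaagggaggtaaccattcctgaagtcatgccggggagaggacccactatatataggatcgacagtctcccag
Of the 31 genes with a window, 9 (29%) held GTTAAT, against 8.24% of the 27025 genes with a window, and 10 (32.3%) held TTGCNNAA, against 12.2%. Fga and Fgb each held both motifs, which did not overlap. Searched likewise, TATAAA was in 4 (12.9%, against 15.7%), the antioxidant response element TGACNNNGC in 4 (12.9%, against 14%) and the HNF4 site CAAAGTCCA in 0 (against 0.555%). The Pros1 window held none of the 5 motifs. A match is a run of letters in the window and not a measured site.

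One slide stood apart for these genes and has to be read with every ratio below. The arrays lay on 5 slides, and 4 animals were on slide 3: corn oil animal 2, 1 mg/kg animal 1, 2 mg/kg animal 5 and 8 mg/kg animal 3. Taking for each animal the median over the 40 genes of its deviation from the corn oil mean, the log2 ratio gave 0.71 to 0.99 in these 4 animals and -0.43 to 0.15 in the other 19. Set against the other slides, 39 of 40 genes were higher on slide 3, with a median difference of 1.00, while the median over all genes was 0.04. In the Cy3 channel, which held the same reference RNA on every array, 39 of 40 genes were lower on slide 3, with a median of -1.02. In the Cy5 channel, which held the liver RNA, 20 genes were higher and 20 lower. The Cy5 median was -0.002, but single genes ran from -0.77 to 0.57, so Cy5 was not free of slide 3 differences. Pros1 was the exception in ratio and Cy3: its ratio was 0.17 lower on slide 3 (difference -0.17) and its Cy3 signal 0.17 higher. Slide accounted for a median of 89.1% of a member's variance in the ratio, 47.3% in Cy5 and 80.9% in Cy3. After the group means were taken out, the ratios of 2 members correlated across the 23 arrays with a median r of 0.867, the Cy5 signals with 0.121 and the Cy3 signals with 0.762, and these points share arrays and slides. For this reason slide was also fitted as a block, and the channels are given on their own further on. What made slide 3 differ was not tested.

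**Figure D1:**
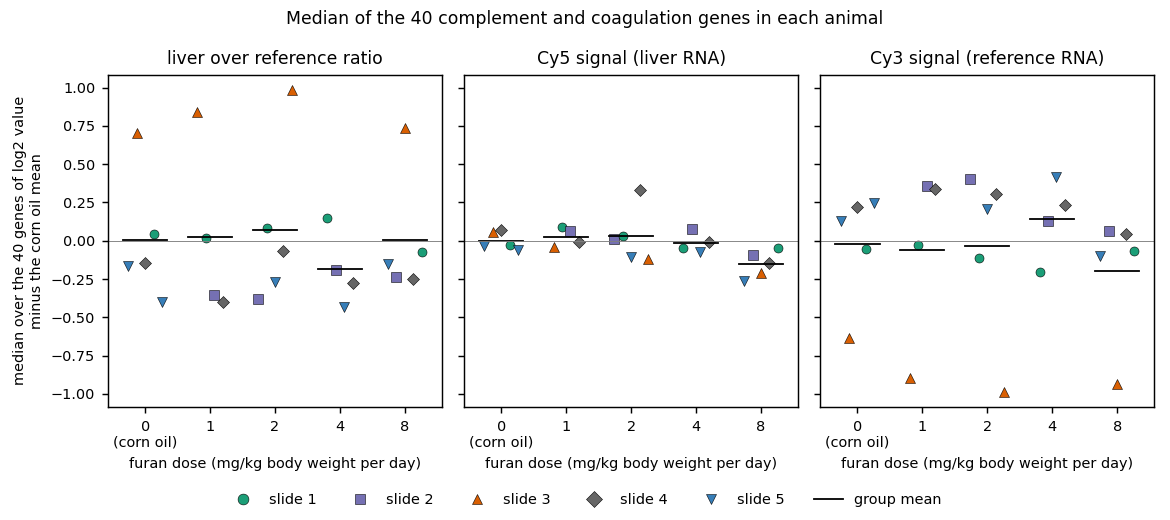
Each point is 1 animal, coloured and shaped by slide, and shows the median over the 40 genes of its log2 value minus the corn oil mean (y axis) at each furan dose in mg/kg (x axis), with group means as bars. The slide 3 animals stand at 0.71 to 0.99 in the ratio and low in the Cy3 reference signal, but among the others in the Cy5 liver signal, where the 8 mg/kg animals lie between -0.26 and -0.05.

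By the ratio, 1 of the 40 genes changed at 8 mg/kg, Pros1, which was lower, and 0 were higher (limma, adjusted p under 0.05). Over all genes tested 8.01% passed at that dose, 3.76% lower and 4.25% higher, so the share among the 40 was not above that background. At 1 mg/kg 0 of 40 passed, where 0% of all genes did. At 2 mg/kg 0 passed, against 0.0101% of all genes, and at 4 mg/kg 0 passed, against 0.0804%; at an unadjusted p under 0.05 the members numbered 0, 2 and 1 at these 3 doses in turn. The slope on dose passed for 1 gene, again Pros1, against 10.4% of all genes. With slide as a block Pros1 was still the single call at 8 mg/kg, against 11.7% of all genes (5.74% lower, 5.95% higher), and in the slope, against 15.2%. In bulk liver, fewer cells of a type and less RNA per cell cannot be told apart.

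The median difference of the 40 genes from corn oil was 0.02 for 1 mg/kg, 0.05 for 2 mg/kg, -0.21 for 4 mg/kg and 0.02 for 8 mg/kg. No 4 mg/kg animal was on slide 3, and the 37 of 40 genes below 0 at 4 mg/kg became 21 of 40, with a median of -0.005, once slide was a block. At 8 mg/kg the slide block gave a median of 0.03, with 15 of 40 genes below 0. The 95% interval of the difference at 8 mg/kg lay within 1.5-fold either way for 35 of 40 genes with the block, but for 9 of 40 without it.

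Pros1 encodes protein S, a vitamin K-dependent anticoagulant that serves activated protein C. Its log2 ratio was 1.98, 2.25, 1.97, 1.86 and 1.94 in the animals given 8 mg/kg, against 2.48, 2.42, 2.52, 2.51 and 2.35 in the corn oil animals. The 8 mg/kg animals all lay below the corn oil animals, and no other member's groups were apart by ratio at this dose, where 4.32% of all genes were lower without overlap. For Pros1, 1 mg/kg gave 2.11, 2.46, 2.40 and 2.51, 2 mg/kg gave 2.61, 2.41, 2.14, 3.00 and 2.28 and 4 mg/kg gave 2.32, 2.12, 2.01 and 2.23. All 4 animals at 4 mg/kg lay below the corn oil range, while 2 mg/kg animal 4 was the highest of the 23. The share of all genes without overlap at 4 mg/kg is not given here. Pros1 was not called at that dose, where the lowest adjusted p of any member was 0.549 by limma, or 0.207 with the block. The difference at 8 mg/kg was -0.45 ± 0.12 (SE), a 1.37-fold lower level (limma adjusted p = 0.0278). With slide as a block it was -0.50, with a 95% interval of -0.74 to -0.27 (adjusted p = 0.00797). The slope was -0.0608 per mg/kg (limma adjusted p = 0.00671). Within the 4 slides that held both groups, 8 mg/kg was lower on 4 of 4, by -0.65 to -0.44. These are the values that gave the call, so this is no separate support.

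On the Cy5 signal alone, with slide as a block, Pros1 was at -0.41 (limma adjusted p = 0.0134), and on the Cy3 signal at 0.08. Without the block Pros1 was not called on Cy5, and it passed in 3 of 23 fits that left out 1 animal. With the block it passed in 23 of 23 such Cy5 fits. It did not pass with the block on the median signal, or without the 4 arrays high in pancreas markers. The call at 8 mg/kg by ratio sat near its threshold. Without corn oil animal 1, 3 or 4, or 8 mg/kg animal 1, 3, 4 or 5, the adjusted p by limma was 0.0525 to 0.0704 (0.006 to 0.0704 over all 23 such fits), while the slope passed in 23 of 23. Without the 4 slide 3 animals Pros1 was at -0.46 (limma adjusted p = 0.0656), and its slope was -0.0662 per mg/kg (limma adjusted p = 0.0132). Endothelial markers, from another cell type that makes protein S, had a median log2 difference of -0.24 at 8 mg/kg. Among 14 measured, Eng at -0.47 and Clec14a at -0.48 were called, where 3.76% of all genes were lower. With the block 0 were called. The list was not uniform, as the slope of Emcn was above 0 (0.037 per mg/kg, not called). The mean over the list in an animal, minus the corn oil mean, ran from -0.55 to 0.12 at 8 mg/kg, against -0.25 to 0.27 in corn oil animals. The part of endothelial markers in the Pros1 result was not tested.

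**Figure D2:**
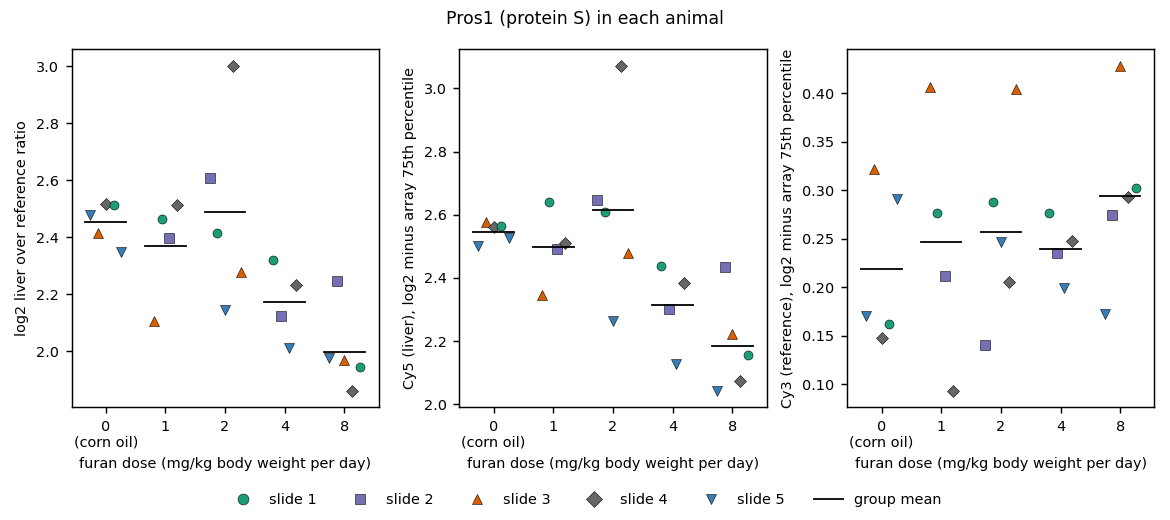
Pros1 in each of the 23 animals by furan dose in mg/kg (x axis), as the log2 liver over reference ratio, the Cy5 signal and the Cy3 signal (y axes, the signals as log2 minus the 75th percentile of the array), with slide as colour and shape and group means as bars. The 8 mg/kg animals lie at 1.86 to 2.25 in the ratio, all below the corn oil animals at 2.35 to 2.52.

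In the initiation of the classical and lectin routes (C2, C4b, Masp1, Masp2, Mbl1 and Mbl2), 0 of 6 genes changed by ratio, and the slide block gave 8 mg/kg differences of -0.23 to 0.07. Mbl1, a mannose-binding lectin that recognises microbial sugars, had log2 ratios of 6.77, 6.88, 7.98, 6.75 and 6.75 in the animals given 8 mg/kg, against 6.75, 7.80, 6.72, 6.88 and 6.53 in the corn oil animals. For Mbl1, 1 mg/kg gave 8.02, 7.14, 6.74 and 6.43, 2 mg/kg gave 6.35, 6.98, 6.53, 6.75 and 7.91 and 4 mg/kg gave 7.07, 6.75, 6.26 and 6.59. Its difference was 0.09 ± 0.33 (limma adjusted p = 0.93). Masp1, a protease carried by the lectins, had log2 ratios of 5.88, 5.60, 5.97, 5.98 and 6.12 in the animals given 8 mg/kg, against 5.99, 6.94, 6.14, 6.00 and 5.74 in the corn oil animals. For Masp1, 1 mg/kg gave 6.98, 5.78, 5.76 and 5.93, 2 mg/kg gave 5.63, 5.50, 5.79, 5.72 and 5.73 and 4 mg/kg gave 6.47, 6.08, 6.16 and 6.14. The Masp1 groups overlapped, and the difference was -0.25 ± 0.21 (limma adjusted p = 0.561). C2, the protease that joins C4b in the C3 convertase, was 5.26, 5.24, 5.58, 5.17 and 5.36 at 8 mg/kg, against 5.55, 5.79, 5.38, 5.57 and 5.35 in corn oil animals. For C4b, which encodes complement C4, the ratios were 5.43, 5.42, 5.75, 5.32 and 5.41 at 8 mg/kg, against 5.56, 6.04, 5.62, 5.78 and 5.41 in corn oil animals. Both overlapped between the groups, with differences of -0.21 and -0.22. C4a is a near-identical copy of C4b, and the probe may read both.

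Cfb, the factor B protease of the alternative pathway, had log2 ratios of 6.68, 6.13, 6.95, 6.30 and 6.38 in the animals given 8 mg/kg, against 6.61, 7.24, 6.44, 6.71 and 6.34 in the corn oil animals. For Cfb, 1 mg/kg gave 7.35, 6.52, 6.12 and 6.18, 2 mg/kg gave 6.20, 6.58, 6.42, 6.58 and 7.26 and 4 mg/kg gave 6.60, 6.72, 6.29 and 6.17. Its difference was -0.18 ± 0.23 (limma adjusted p = 0.743). C3, on which all complement routes converge, had log2 ratios of 6.41, 6.45, 6.98, 6.42 and 6.64 in the animals given 8 mg/kg, against 6.66, 7.25, 6.61, 6.95 and 6.42 in the corn oil animals. For C3, 1 mg/kg gave 7.22, 6.83, 6.55 and 6.58, 2 mg/kg gave 6.61, 6.91, 6.78, 7.13 and 7.59 and 4 mg/kg gave 6.85, 6.49, 6.69 and 6.53. C3 was not called (-0.20 ± 0.18, limma adjusted p = 0.613), and its interval with the slide block was -0.36 to -0.003.

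The 6 terminal pathway genes (Hc, which encodes C5, C6, C8a, C8b, C8g and C9) form the membrane attack complex, and 0 of 6 changed by ratio. C9, the pore-forming subunit, had a ratio difference of 0.31 ± 0.23 (limma adjusted p = 0.505), which rests on a reference spot that was not well above background on any array, and on Cy5 alone it was at 0.08. Its log2 ratios were 10.49, 10.93, 10.86, 10.70 and 9.66 in the animals given 8 mg/kg, against 9.95, 10.62, 10.56, 9.89 and 10.08 in the corn oil animals. For C9, 1 mg/kg gave 10.59, 9.80, 9.61 and 9.86, 2 mg/kg gave 10.54, 10.47, 10.37, 11.13 and 10.90 and 4 mg/kg gave 10.10, 10.32, 9.86 and 10.17. The C9 groups overlapped. C8g, the small gamma chain of C8, read 5.12, 4.93, 5.79, 5.07 and 5.12 in the animals given 8 mg/kg, against 5.24, 5.73, 5.26, 5.24 and 4.97 in the corn oil animals. For C8g, 1 mg/kg gave 5.76, 5.26, 4.90 and 5.02, 2 mg/kg gave 4.98, 5.37, 5.04, 5.18 and 6.09 and 4 mg/kg gave 5.27, 5.04, 4.87 and 5.16. Its difference was -0.08 (limma adjusted p = 0.891).

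Of the 3 complement regulators 0 changed by ratio. C4bp, the C4b-binding protein that also carries protein S in human plasma, had log2 ratios of 9.64, 9.83, 10.57, 9.65 and 10.02 in the animals given 8 mg/kg, against 9.50, 10.26, 9.89, 9.66 and 9.27 in the corn oil animals. For C4bp, 1 mg/kg gave 10.43, 9.81, 9.60 and 9.65, 2 mg/kg gave 9.66, 9.93, 9.59, 9.83 and 10.71 and 4 mg/kg gave 10.13, 9.71, 9.08 and 9.64. Its difference was 0.23 ± 0.25 (limma adjusted p = 0.679). Serping1, the C1 inhibitor that also blocks plasma kallikrein, had log2 ratios of 8.00, 8.11, 9.35, 8.08 and 8.29 in the animals given 8 mg/kg, against 7.95, 9.26, 8.21, 8.40 and 7.82 in the corn oil animals. For Serping1, 1 mg/kg gave 9.32, 8.56, 7.98 and 7.85, 2 mg/kg gave 7.95, 8.90, 7.84, 8.40 and 9.73 and 4 mg/kg gave 8.50, 8.08, 7.66 and 8.00. The Serping1 groups overlapped over almost their whole range (difference 0.04).

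Among the 4 vitamin K-dependent clotting factors (F2, F7, F9 and F10) 0 changed by ratio. F9, the antihaemophilic factor IX, had log2 ratios of 6.05, 5.64, 6.25, 5.64 and 5.56 in the animals given 8 mg/kg, against 5.31, 6.24, 5.51, 5.55 and 5.84 in the corn oil animals. For F9, 1 mg/kg gave 6.27, 5.63, 5.30 and 5.49, 2 mg/kg gave 6.15, 5.81, 5.98, 6.02 and 6.79 and 4 mg/kg gave 6.04, 5.31, 5.93 and 5.51. Its difference was 0.14 ± 0.22 (limma adjusted p = 0.807). F10, which turns prothrombin into thrombin, had log2 ratios of 1.35, 1.42, 1.56, 1.72 and 1.71 in the animals given 8 mg/kg, against 1.70, 1.46, 1.57, 1.93 and 1.58 in the corn oil animals. For F10, 1 mg/kg gave 1.24, 1.56, 1.22 and 1.53, 2 mg/kg gave 1.53, 1.34, 1.50, 1.19 and 2.12 and 4 mg/kg gave 0.95, 1.36, 1.67 and 1.70. F10 had the lowest ratio of the members, and its groups overlapped (difference -0.09).

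Of the 6 other clotting factors (F5, F11, F12, F13b, Kng1 and Klkb1) 0 changed by ratio. F13b, the carrier subunit of the fibrin-linking factor XIII, had log2 ratios of 10.80, 10.71, 12.29, 10.51 and 11.23 in the animals given 8 mg/kg, against 10.55, 12.06, 10.55, 10.96 and 10.28 in the corn oil animals. For F13b, 1 mg/kg gave 12.59, 11.18, 10.43 and 10.28, 2 mg/kg gave 10.49, 11.27, 10.28, 10.82 and 12.25 and 4 mg/kg gave 11.55, 11.32, 10.22 and 10.35. The slide 3 animals read 12.06 to 12.59 and all other animals less than these. F5, the cofactor of factor X, had log2 ratios of 6.57, 6.27, 7.27, 6.34 and 6.24 in the animals given 8 mg/kg, against 6.69, 7.24, 6.30, 6.47 and 6.30 in the corn oil animals. For F5, 1 mg/kg gave 7.49, 6.47, 6.09 and 6.13, 2 mg/kg gave 5.75, 6.48, 6.42, 5.92 and 7.45 and 4 mg/kg gave 6.43, 6.16, 6.37 and 6.17. The differences were 0.23 ± 0.47 for F13b and -0.06 ± 0.30 for F5.

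Fibrinogen's 3 chains are encoded side by side, with Fgg, Fga and Fgb neighbours among coding genes on chromosome 3, and 0 of 3 changed. Fgg, the gamma chain, had log2 ratios of 9.62, 9.59, 11.15, 9.59 and 9.64 in the animals given 8 mg/kg, against 9.35, 11.18, 9.58, 9.83 and 9.17 in the corn oil animals. For Fgg, 1 mg/kg gave 11.46, 9.72, 9.29 and 9.38, 2 mg/kg gave 9.13, 9.89, 9.30, 9.93 and 11.57 and 4 mg/kg gave 9.99, 9.44, 9.00 and 9.46. Fga, the alpha chain, had log2 ratios of 8.00, 7.08, 8.69, 7.56 and 7.46 in the animals given 8 mg/kg, against 8.09, 8.70, 7.46, 7.48 and 7.96 in the corn oil animals. For Fga, 1 mg/kg gave 8.95, 7.65, 6.97 and 7.29, 2 mg/kg gave 6.83, 7.69, 8.15, 7.79 and 9.28 and 4 mg/kg gave 7.87, 7.20, 7.60 and 7.40. In both chains the slide 3 animal was the highest of the 8 mg/kg group and of the corn oil group. With slide as a block the differences were 0.08 for Fgg, 0.01 for Fga and -0.01 for Fgb.

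The fibrinolysis genes (Plg, Serpinf2 and Cpb2) likewise had 0 of 3 changed. Plg encodes plasminogen, whose active form dissolves fibrin, and its log2 ratios were 7.54, 6.27, 7.87, 6.77 and 6.17 in the animals given 8 mg/kg, against 7.35, 7.79, 6.74, 6.32 and 7.12 in the corn oil animals. For Plg, 1 mg/kg gave 7.87, 6.08, 6.11 and 6.56, 2 mg/kg gave 5.92, 6.20, 7.29, 6.75 and 8.52 and 4 mg/kg gave 6.44, 6.30, 6.97 and 6.76. Serpinf2, the inhibitor of plasmin, had log2 ratios of 5.26, 5.33, 6.12, 5.24 and 5.32 in the animals given 8 mg/kg, against 5.18, 5.84, 5.38, 5.32 and 5.01 in the corn oil animals. For Serpinf2, 1 mg/kg gave 5.90, 5.30, 5.09 and 4.88, 2 mg/kg gave 5.10, 5.42, 5.20, 5.29 and 6.33 and 4 mg/kg gave 5.48, 5.13, 4.95 and 5.03. The groups overlapped for both genes.

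Besides Pros1, the anticoagulants Proc, Serpinc1 and Serpind1 had 0 of 3 changed by ratio. Serpind1, the thrombin inhibitor heparin cofactor II, had log2 ratios of 5.67, 5.80, 6.77, 5.84 and 6.22 in the animals given 8 mg/kg, against 5.59, 6.63, 5.89, 6.21 and 5.28 in the corn oil animals. For Serpind1, 1 mg/kg gave 6.84, 6.10, 5.72 and 5.50, 2 mg/kg gave 5.72, 6.21, 5.41, 5.79 and 6.97 and 4 mg/kg gave 6.16, 6.23, 5.34 and 5.63. Its difference was 0.14 ± 0.31 (limma adjusted p = 0.877). Of 3 other plasma proteins, 0 changed. Apoh, a phospholipid-binding protein, had log2 ratios of 9.80, 9.79, 11.17, 9.75 and 10.04 in the animals given 8 mg/kg, against 9.62, 11.20, 9.71, 10.23 and 9.34 in the corn oil animals. For Apoh, 1 mg/kg gave 11.16, 10.17, 9.43 and 9.54, 2 mg/kg gave 9.34, 10.33, 9.47, 9.73 and 11.31 and 4 mg/kg gave 10.49, 9.67, 8.90 and 9.52. Vtn, vitronectin, which binds the membrane attack complex, had log2 ratios of 6.33, 6.14, 6.76, 6.13 and 6.48 in the animals given 8 mg/kg, against 6.35, 6.94, 6.21, 6.54 and 6.07 in the corn oil animals. For Vtn, 1 mg/kg gave 6.97, 6.54, 6.12 and 5.96, 2 mg/kg gave 6.06, 6.56, 6.15, 6.37 and 7.04 and 4 mg/kg gave 6.45, 6.26, 6.14 and 6.02. The differences were 0.09 for Apoh and -0.05 for Vtn.

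**Figure D3:**
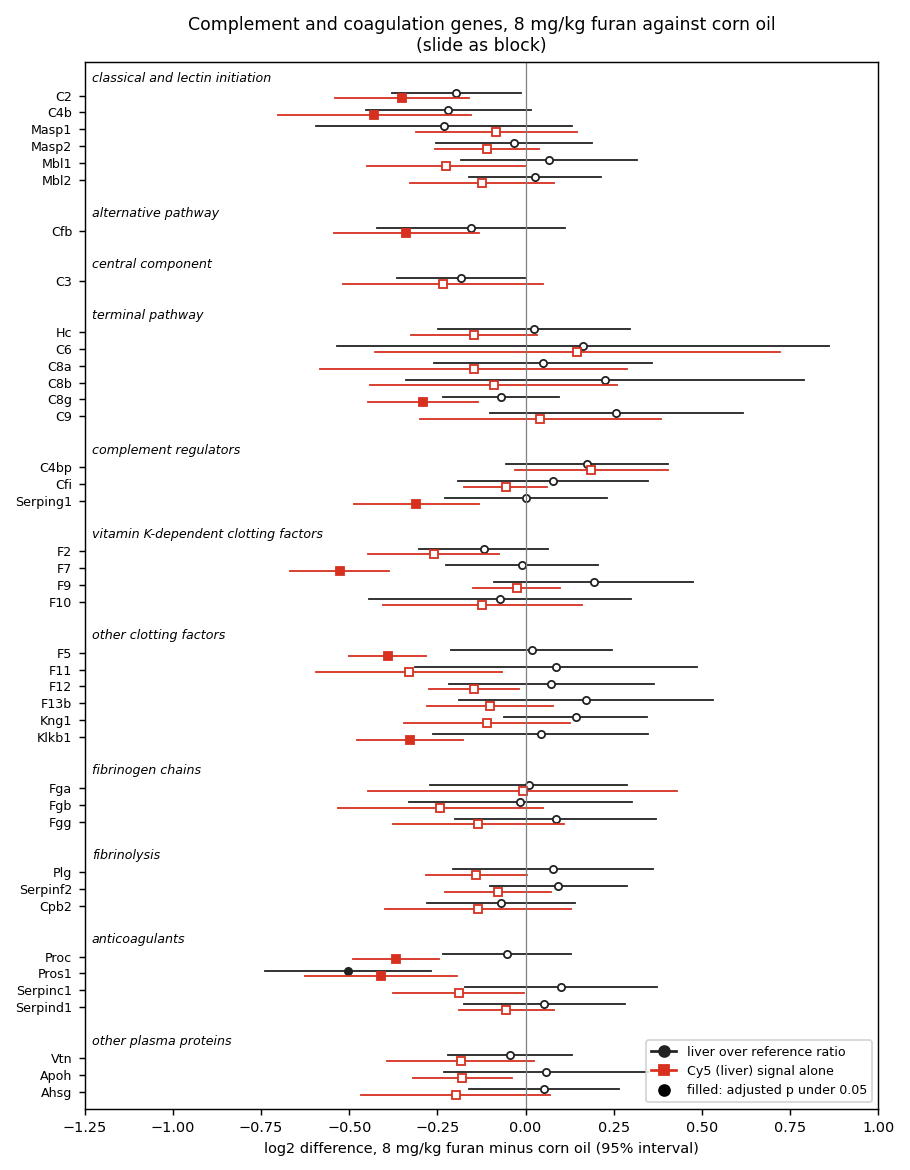
Log2 difference of 8 mg/kg furan minus corn oil (x axis) with its 95% interval for each of the 40 genes (y axis, grouped by role), with slide as a block, by the liver over reference ratio (black circles) and by the Cy5 liver signal alone (red squares), filled where the limma adjusted p was under 0.05. By ratio Pros1 alone is filled, at -0.50, and by Cy5 10 genes are filled, all below 0.

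Because the reference channel carried the slide 3 shift, the Cy5 signal was also tested on its own, as log2 of the processed signal minus the 75th percentile of each array, a choice made after the data were seen. At 8 mg/kg 4 genes were lower and 0 higher (limma), namely F7, Proc, C8g and Klkb1, where 2.73% of all genes were lower, 4.08% were higher and 6.81% passed either way. With slide as a block 10 were lower and 0 higher (6 to 11 when 1 animal was left out, with 6 without 8 mg/kg animal 1), against 5.7% lower, 7.97% higher and 13.7% either way over all genes. The additions were Pros1, F5, C4b, C2, Cfb and Serping1. Without the slide 3 animals the Cy5 test passed for 2 genes, F7 and Proc, against 4.72% of all genes, a share near that of the 40. The slope on dose passed on Cy5 for 9 genes, all lower, against 9.22% of all genes, and with the block for 11, all lower, against 17.2%. The median of the 40 genes was -0.15 in both Cy5 fits, with 33 and, under the block, 37 of 40 below 0, while the median over all genes was 0.01 and -0.001. On the median signal of the spots in place of the processed signal the Cy5 test called 0 genes, against 1.71% of all genes, and 3 (C4b, F5 and F7) with the block, against 9.98%. The hepatocyte secreted proteins outside the cascades also had lower Cy5 medians at 8 mg/kg than in corn oil animals. Over 24 of them the median was -0.15 in both Cy5 fits, with 1 (Fetub, fetuin B) lower, or 4 with the block (Fetub, Igfals, Itih1 and Pon1). The 12 hepatocyte markers had medians of -0.18 and, with the block, -0.19, with 1, Hpd, lower in both. On each of the 4 slides that held both groups the mean Cy5 signal over each of these lists was lower at 8 mg/kg. The differences were -0.22 to -0.04 for the secreted proteins and -0.26 to -0.08 for the markers.

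The same spots also had lower mean Cy3 signals at 8 mg/kg than in corn oil animals, although that channel held the same reference RNA on every array. At 8 mg/kg with slide as a block, the Cy3 median of the 40 genes was -0.23, with 37 of 40 below 0, and 0 passed by limma (lowest adjusted p = 0.175, with 0.0251% of all genes passing), although 12 had an unadjusted p under 0.05. Of the 10 genes lower on Cy5, 9 were also below 0 on Cy3, 8 of them at an unadjusted p under 0.05. Pros1 was the exception, at -0.41 on Cy5 and 0.08 on Cy3. What moved both channels together was not tested.

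F7 encodes factor VII, the protease that starts clotting with tissue factor. Its Cy5 level was 4.25, 4.59, 4.31, 4.45 and 4.30 at 8 mg/kg, against 4.80, 5.06, 4.94, 4.78 and 4.80 in corn oil animals. For F7 on Cy5, 1 mg/kg gave 5.01, 5.02, 5.01 and 4.88, 2 mg/kg gave 4.76, 4.84, 4.66, 4.86 and 4.85 and 4 mg/kg gave 4.81, 4.80, 4.77 and 4.88. The 5 animals at 8 mg/kg were the 5 lowest of the 23. The Cy5 difference was -0.50 ± 0.08 (limma adjusted p = 0.00042), and on Cy3 it was -0.50 ± 0.29. The log2 ratio of F7 was 6.25, 6.06, 7.19, 6.16 and 6.29 at 8 mg/kg, against 6.32, 7.11, 6.32, 6.31 and 6.00 in corn oil animals, with a difference of -0.02. F10, the next coding gene after F7 on chromosome 8, was not called on Cy5 (-0.16 ± 0.16, limma adjusted p = 0.721).

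Proc encodes protein C, the anticoagulant protease that protein S assists. Its Cy5 level was 7.91, 8.02, 8.17, 8.01 and 8.13 at 8 mg/kg, against 8.24, 8.53, 8.42, 8.48 and 8.35 in corn oil animals, and these groups did not overlap. The Cy5 difference was -0.36 ± 0.08 (limma adjusted p = 0.00746) and the Cy3 difference -0.39 ± 0.26. By ratio Proc read 6.37, 6.62, 7.43, 6.57 and 6.88 at 8 mg/kg, against 6.42, 7.59, 6.69, 6.92 and 6.22 in corn oil animals. C8g on Cy5 was 8.51, 8.42, 8.43, 8.50 and 8.49 at 8 mg/kg, against 8.86, 8.74, 8.90, 8.67 and 8.69 in corn oil animals, without overlap. Klkb1, plasma prekallikrein of the contact system, was 6.26, 6.30, 6.43, 6.14 and 6.38 on Cy5 at 8 mg/kg, against 6.48, 6.79, 6.62, 6.60 and 6.60 in corn oil animals. The differences were -0.30 on Cy5 and -0.25 on Cy3 for C8g, and -0.32 and -0.37 for Klkb1. The ratio of Klkb1 was 7.95, 7.67, 8.95, 7.45 and 8.00 at 8 mg/kg, against 7.86, 8.92, 7.65, 7.86 and 7.56 in corn oil animals. Leaving out 1 animal at a time, F7, Proc and C8g passed on Cy5 in 23 of 23 fits and Klkb1 in 16 of 23, and with the block C4b passed in 15 and Cfb in 16 of 23.

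**Figure D4:**
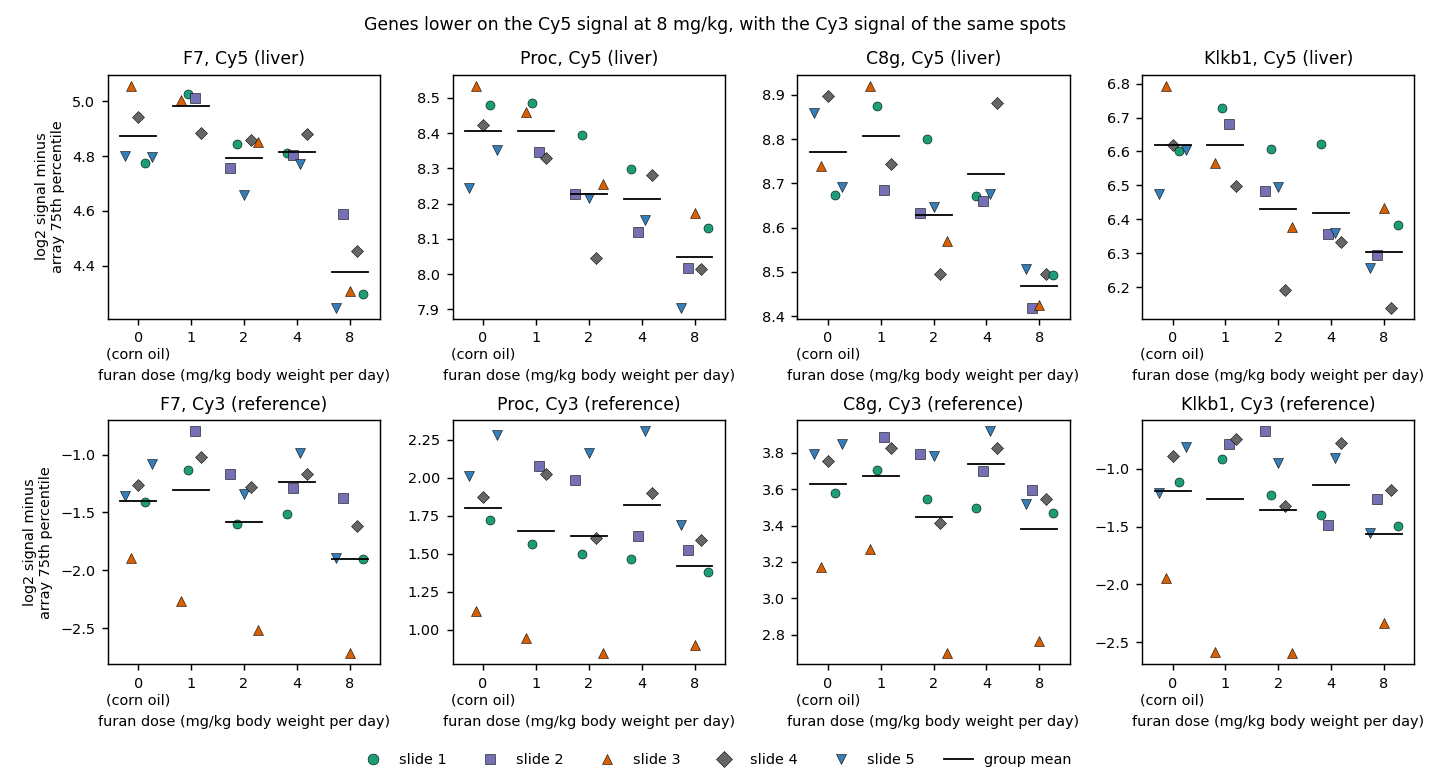
Cy5 liver signal (upper panels) and Cy3 reference signal (lower panels) of F7, Proc, C8g and Klkb1 in each animal (y axis, log2 minus the 75th percentile of the array) by furan dose in mg/kg (x axis), with slide as colour and shape and group means as bars. The 8 mg/kg animals are low in Cy5, at 4.25 to 4.59 for F7, and the group mean at 8 mg/kg is also the lowest in Cy3, where slide 3 lies below the other slides.

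For the 6 genes added by the slide block, Cy5 differences were -0.41 for Pros1, -0.43 for C4b, -0.39 for F5, -0.35 for C2, -0.34 for Cfb and -0.31 for Serping1. C2 and Cfb are neighbours on chromosome 17 and encode the homologous proteases of the classical and alternative convertases. In Cy3 with the block C2 was at -0.17, Cfb at -0.20, C4b at -0.23, F5 at -0.43 and Serping1 at -0.33. All 10 genes were lower at 8 mg/kg on each of the 4 slides that held both groups, by Cy5. They were picked by a fit to these same values, so this adds no separate support. Uncalled members such as F2, Plg and Apoh were also lower on all 4 slides, and the share over all genes is not given here. By Cy5 7 genes were lower at 8 mg/kg without overlap (3.24% of all genes were) and C4bp was higher without overlap (4.48% of all genes were). C4bp was 7.56, 7.53, 7.66, 7.51 and 7.56 on Cy5 at 8 mg/kg, against 7.47, 7.37, 7.44, 7.27 and 7.45 in corn oil animals, and its difference of 0.16 ± 0.11 did not pass (limma adjusted p = 0.508).

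Genes around the cascades were read by ratio from lists of the same families. Of 37 other complement genes 30 were measured, with a median of -0.16 at 8 mg/kg. Of these, 3 were lower and 0 higher (limma), against 3.76% and 4.25% of all genes. They were Cd59a, which blocks the membrane attack complex, at -0.43 ± 0.07 (adjusted p = 0.000925 by limma), C1ra, a protease of C1, at -0.38 ± 0.11, and Cr1l, the mouse Crry regulator of C3 cleavage, at -0.30 ± 0.08. The block added C1rb at -0.37 and C1rl at -0.24, in a fit where 5.74% of all genes were lower. The lowest difference, Colec10 at -0.50, and the highest, Itgax at 0.44, did not pass. The slope passed for C1ra, Cd59a and Cr1l, 3 of 30, against 10.4% of all genes, so this count was near the background.

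Of 27 other coagulation and fibrinolysis genes measured of 36, 1 was lower and 0 higher, against 3.76% and 4.25% of all genes. This count was near the share over all genes. The gene was Vkorc1, the vitamin K epoxide reductase, at -0.35 ± 0.09 (limma adjusted p = 0.0244). Ggcx, the carboxylase that uses vitamin K to modify protein S, protein C and factors VII, IX and X, was at -0.30 ± 0.10 and passed in the slope (-0.042 per mg/kg, limma adjusted p = 0.0229) and with the block. Over all genes 10.4% passed in the slope, and 11.7% passed at 8 mg/kg with the block. The lowest difference, Tfpi at -0.42, and the highest, Gas6 at 0.34, did not pass. The slope of Tfpi passed with the block, lower, as did the slope of 15.2% of all genes in either direction.

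Of 24 hepatocyte secreted proteins outside these cascades 0 passed by ratio at 8 mg/kg, with a median of 0.08, and of 20 liver transcription factors and cytokine signals 0 passed, with a median of -0.002. Among 20 acute phase genes 1 was lower, Lbp, the lipopolysaccharide-binding protein, at -0.46 ± 0.13 (limma adjusted p = 0.0389). Over all genes 3.76% were lower at that dose. Of 12 hepatocyte markers 0 passed, and Cyp2e1 was lower with the block, where 5.74% of all genes were lower. Markers of Kupffer cells (9 measured), neutrophils (4), stellate cells (10), cholangiocytes (4), platelets (4) and erythrocytes (4) had 0 called. The highest Pros1 ratio and the highest Cy5 median of the 40 genes (0.33) were in 2 mg/kg animal 4. Its neutrophil score (the list's mean log2 ratio above the corn oil mean) was 2.83, against -0.73 to 0.79 in the other 22 animals. Its Kupffer cell score was 0.89, against -0.47 to 0.70, and its platelet score 1.01, against -0.53 to 0.29. By ratio its acute phase score was 1.11, within the -0.39 to 1.15 of the other animals, while on Cy5 it was 2.66, against -0.16 to 1.01. Without this animal Pros1 had an adjusted p of 0.006 by limma at 8 mg/kg, and 8 members were lower on Cy5 in place of 4. The share of all genes passing in that Cy5 fit is not given here, so the rise cannot be read as particular to the members. The part of these markers in the member values was not tested. Pancreas markers (5 measured) had 0 called. Their mean score was 2.59 to 3.69 in 2 mg/kg animals 1 and 5, 4 mg/kg animal 1 and 8 mg/kg animal 5, against -0.46 to 0.49 in the other 19. Without these 4 arrays Pros1 was at -0.44 by ratio (limma adjusted p = 0.0705), and 2 members, Proc and F7, passed on Cy5, against 4.62% of all genes, or 5 (these with Klkb1, F5 and F11) with the slide block, against 8.43%.

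Other probes were read for the 10 genes with more than 1. For 9 of the 10 all probes had the same sign of the 8 mg/kg difference by ratio, and for Kng1, high molecular weight kininogen, the signs differed. On Cy5 the signs differed for C8a only, at -0.04 and 0.38, and the Masp2 probes ran from -0.44 to -0.07.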

How the data were processed

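Liver RNA of 23 mice was read on 2-colour Agilent arrays of 62976 spots. The series text counts 25 samples, and 23 are analysed here. Per the file headers, the authors' scans were read with Feature Extraction 10.7.3.1, whose deposited processed signals are linear intensities after background subtraction and dye normalisation. A deposited table of the series gives linear ratios, with column medians of 0.974 to 0.987, and on the log2 scale they followed Cy5 over Cy3 of the median signals after loess (r = 0.995 to 0.996). Other columns are 0 or 1 marks.

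Ratios of processed Cy5 over Cy3 were put on the log2 scale and through an array-wise loess (span 0.3, 4 iterations) that gave control and outlier spots no weight. A probe needed Cy5 signal well above background in 4 or more arrays of 1 group (25576 of 55681 passed), and 22010 to 30114 probes per array were well above background. Systematic names matched RefSeq transcripts (GRCm38.p6, names only) for 26413 probes and 20018 symbols. The brightest probe stood for a gene, with at least 3 values per group. Comparisons used lmFit and eBayes of limma 3.58.1 under R 4.3.3 (all 23 arrays, group only, two-sided, Benjamini-Hochberg over 19899 genes, threshold 0.05, 18 residual degrees of freedom). The number of animals limits the precision. The code was tested on simulated data.

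The 40 genes, the lists and the tests were chosen with earlier results of these data known. Members named with every animal's value passed at some dose or in the slope, or had the largest rise or fall at 8 mg/kg within their role. F7, Proc, Klkb1, C2 and C4b, and the Cy5 tests, were added after their values were seen. Same-numbered animals of different groups did not deviate together, as the closing section gives. Alternatives tried were the slide block, other background and between-array corrections, the deposited table, no filter, and leaving out each animal. The result of 1 gene in the lists around the cascades is not reported here.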

Additional observations from a re-analysis of the deposited data

Results flagged for a closer look

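For 25 named members and the median over the 40 genes, 130 groups of 4 or 5 animals were tested by log2 ratio. In 14 of them 1 value stood far from the rest, and all 14 belonged to animals on slide 3. Chance gives about 1 in 20 for independent groups. These groups share arrays and slides, so 14 of 130 cannot be set against that share. In 8 mg/kg animal 3 the median over the 40 genes was 0.736 above the corn oil mean, and 8 genes stood out by log2 ratio: Mbl1 at 7.98, C8g at 5.79, Serping1 at 9.35, Fgg at 11.1, Serpinf2 at 6.12, Apoh at 11.2, F7 at 7.19 and C4b at 5.75. In corn oil animal 2 it was 3 genes, with Mbl1 at 7.80, F7 at 7.11 and Klkb1 at 8.92. Masp1 stood out in 1 mg/kg animal 1, at 6.98, and Serpinf2 in 2 mg/kg animal 5, at 6.325. These values carry the slide 3 shift described above, and its cause was not tested.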

How the results depend on the processing

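The count of members called at 8 mg/kg by ratio was 1 and became 0 with normexp on the median signals, with median signals and no background correction, without loess, with quantile scaling between arrays, in the deposited value table, without the filter on dim probes, without the 4 pancreas-rich arrays and without slide 3. Pros1 stayed below 0 in these settings, with limma adjusted p values from 0.0649 to 0.192. The call was kept with slide as a fixed or random block, the replicate block, the mean of all probes and a filter on every array. Pros1 has 1 probe, with Cy5 well above background on all 23 arrays. The probe mean and that filter therefore left its own values unchanged and are no check on them. On Cy5 alone the count was 4, with the slide block 10 and with quantile scaling 3. The slope count was 1 and became 0 with quantile scaling, 9 on Cy5 alone, 11 with the slide block and 6 with quantile scaling of Cy5. Called on Cy5 but above 0 by ratio without the block were Proc at -0.36 (-0.37 with the slide block, -0.29 with quantile scaling), Klkb1 at -0.32 (-0.33 and -0.28) and, with the block, Serping1 at -0.31. The cause of these moves was not tested. Leaving out 1 animal at a time gave 0 to 1 members at 8 mg/kg, 1 in the slope and 0 at the other doses. It gave 3 to 8 on Cy5 alone (8 without 2 mg/kg animal 4), or 6 to 11 with the slide block (6 without 8 mg/kg animal 1). The shares over all genes in these fits are not given here. Animals with the same number in different groups had a median correlation of 0.0233 after group means (14 of 43 pairs above 0.1), and 7 of 23 arrays correlated best with their own number against 20 of 23 with their own slide. The numbers therefore do not pair the animals; with the replicate block the count at 8 mg/kg was 1 and Pros1 was at -0.45 (limma adjusted p = 0.0325). Signal over background limits C9 and F13b, whose reference signal was dim.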
